A study of Saccharomyces cerevisiae with 18 samples.

Results

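The response described here is that of budding yeast (Saccharomyces cerevisiae, strain S288C) to 3 mM o-nitrophenol for 2 h, read against the same strain before treatment. It comprises 6 of the 18 columns of values in the study, a high-power and a low-power laser scan of each of 3 arrays. The scans were averaged per array where both had a value, so that n is 3 of 9 arrays. On each 2-colour array, Cy5-labelled polyA RNA from an exponentially growing culture in YPD, a rich glucose medium, after exposure was set against Cy3-labelled RNA from before treatment. The other 6 arrays hold p-nitrophenol at 1.5 mM and m-nitrophenol at 5 mM, 3 arrays each, also after 2 h and also against RNA from before treatment. The labels give the 3 cultures of an isomer as independent biological samples, and do not say whether arrays shared the RNA taken before treatment.

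Nitrophenols are phenol rings with a nitro group, and in o-nitrophenol that group is the neighbour of the hydroxyl group. They are weak acids, and are used to make dyes, drugs and pesticides. In yeast, stress commonly raises a shared set of protective genes under the transcription factors Msn2 and Msn4 and lowers genes of ribosomes and growth. Yap1 serves the defence against oxidants, Hsf1 the heat shock genes, Rpn4 the proteasome and Pdr1 and Pdr3 the drug efflux pumps.

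Each value is a log2 ratio, taken as RNA after o-nitrophenol over RNA from before treatment, so that values above 0 mean higher after exposure. The dyes named in the labels make this direction likely, though the values come with no statement of it. No dyes were swapped and no untreated culture at 2 h was analysed here, so growth and dye effects cannot be told apart from the effect of o-nitrophenol. Means are given ± the standard error of a limma fit to all 9 arrays, and p-values from limma were adjusted by the Benjamini-Hochberg method over all 5096 genes tested. The median 95% half-width of a mean was 0.80, and the number of arrays limits the precision.

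Array 1 stood apart from arrays 2 and 3. It held values for 3797 genes, against 5316 on array 2 and 5155 on array 3. Its low-power scan had values for only 766 probes, against 4967 and 4390. Both scans had a value for 713 of its probes, against 4901 and 4358, so most of its values rest on 1 scan. Where both had a value, the scans of array 1 differed by a median of 0.60, against 0.17 and 0.20. Across genes the log2 ratios of array 1 correlated with those of arrays 2 and 3 at r of 0.50 and 0.58, while arrays 2 and 3 correlated at 0.87 (genes are not independent replicates). The spread of its ratios was wider, with an SD across genes of 1.72, against 1.34 and 1.26. With arrays 1, 2 and 3 of p-nitrophenol array 1 correlated at 0.60, 0.38 and 0.40, and with those of m-nitrophenol at 0.59, 0.51 and 0.59. Its part in each result was measured by leaving it out. The median log2 ratio of the high-power scan was -0.13 on array 1, -0.01 on array 2 and -0.02 on array 3, and that of the low-power scan was 0.05, -0.04 and -0.05. Array 1 of the other isomers also held fewer values. It had 4369 genes in p-nitrophenol, against 5247 and 5252, and 1970 in m-nitrophenol, against 5333 and 5343. Most m-nitrophenol means therefore rest on 2 arrays.

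**Figure D1:**
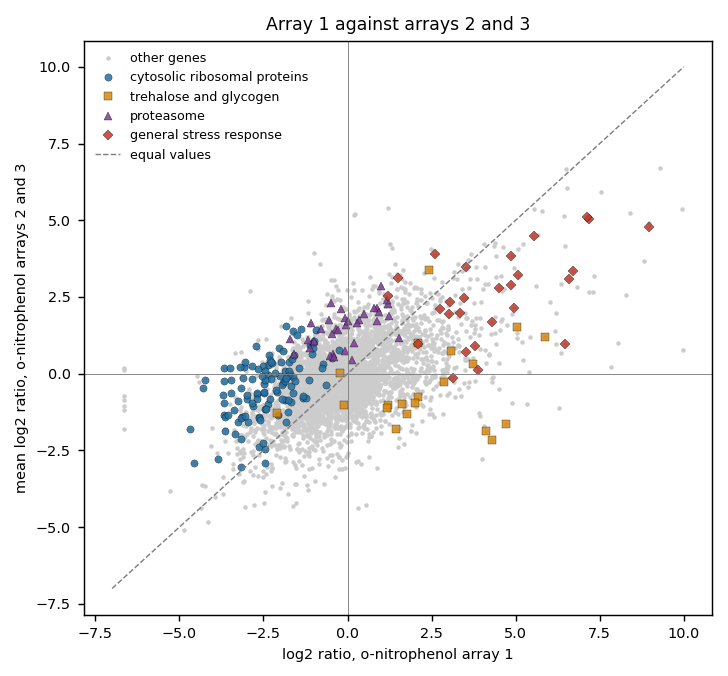
Each point is a gene with values on all 3 o-nitrophenol arrays, with its log2 ratio on array 1 (horizontal) and its mean log2 ratio on arrays 2 and 3 (vertical), and the dashed line marks equal values. Trehalose and glycogen genes lie mostly to the right of the line and cytosolic ribosomal protein genes mostly to the left, with list medians of 2.09 and -2.40 on array 1.

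After o-nitrophenol 1652 of the 5096 genes tested passed an adjusted p of 0.05, which is 32.4% of them. Of these, 701 rose (13.8% of the genes tested) and 951 fell (18.7%), 640 and 834 of them by at least 2-fold. Values on all 3 arrays were present for 563 of the genes that rose and 749 of those that fell, and 547 and 739 of these had 1 sign on every array. Higher genes made up 42.4% of the calls. Centring each array on its own median shifted the median over all genes by 0.16 and gave 860 higher and 719 lower genes, so that 54.5% were higher. The split between rises and falls therefore depends on the scaling, and list medians are set beside the median of all genes tested, which was -0.17. Without array 1 there were 721 rises and 969 falls, without array 2 the numbers were 380 and 467, and without array 3 they were 380 and 461. In the groups described below, the numbers after "without array 1, 2 or 3" are the calls in these 3 fits. List members named in these groups had to be called with 1 sign on all 3 arrays, unless another rule named them. Their agreement in sign is therefore a condition and not a result.

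The largest rise was that of STR3, a cystathionine beta-lyase of sulfur amino acid metabolism. Its log2 ratios were 9.30, 6.65 and 6.76 on arrays 1, 2 and 3, a mean of 7.57 ± 0.52 (adjusted p = 0.000102). THI4, which makes the thiazole part of thiamine, had 9.94, 5.93 and 4.83 (6.90 ± 0.91, adjusted p = 0.000973). All 3 arrays were far above 0 for both genes, and array 1 was the highest. SPS100, a spore wall protein gene, had 6.51, 6.58 and 6.73 (6.61 ± 0.35), values that lay closer together than those of its neighbours in rank. PDC5, a pyruvate decarboxylase, had 7.54, 5.94 and 5.92, a mean of 6.47 ± 0.45 or 88.5-fold (adjusted p = 3.53e-05).

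The other large rises were stress and metal genes and several others. HSP26, a small heat shock protein gene, had log2 ratios of 8.41, 5.25 and 5.25 (6.30 ± 1.15), and HSP12, which encodes a small membrane stress protein, had 7.17, 5.40 and 4.66 (5.75 ± 0.59). DDR2, a general stress gene, averaged 6.17 ± 0.69, and SIP18, which protects cells during drying, 5.78 ± 0.45. Array 1 was the highest array for each of these 4 genes. The metallothionein genes CUP1-1 and CUP1-2, whose products bind copper, had 5.79, 5.68 and 4.92, and 5.55, 5.69 and 5.03, with means of 5.46 ± 0.41 and 5.42 ± 0.38. They are near-identical copies, so that their probes cannot be told apart. EGO4 (6.27 ± 0.86), GPG1 (6.20 ± 0.56), FMP16 (5.39 ± 1.00), CPP3 (4.93 ± 0.54) and YRO2, a plasma membrane protein gene (4.91 ± 0.50), completed the 15 largest rises among genes with a standard name and 1 sign on 3 arrays.

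The largest falls were in lipid, cell wall and nucleotide genes. ELO3, a fatty acid elongase of sphingolipid synthesis, had log2 ratios of -4.87, -5.29 and -4.93, a mean of -5.03 ± 0.41 (adjusted p = 0.000186). ERG3, a sterol desaturase of ergosterol synthesis, had -4.14, -5.02 and -4.62 (-4.60 ± 0.66), and the cell wall transglycosylase gene UTR2 had -4.36, -4.24 and -4.50 (-4.37 ± 0.34). No array was above -4.14 for these 3 genes. YEF3, a translation elongation factor of fungi, averaged -4.31 ± 0.65, and GUA1, which encodes GMP synthase, had -3.95, -4.07 and -3.95 (-3.99 ± 0.35). HPT1, which salvages guanine and hypoxanthine, averaged -3.85 ± 0.45. STE3, the receptor of the mating pheromone a-factor, averaged -3.92 ± 0.48, ELO2, a second elongase, -3.85 ± 0.39, and the wall protein genes SRL1 and SCW10 -3.85 ± 0.25 and -3.79 ± 0.46. WSC2, a sensor of wall stress (-3.64 ± 0.40), SIM1 of the wall (-3.47 ± 0.47), the ribosomal protein gene RPL15A (-3.46 ± 0.62) and the cyclin gene CLN3 (-3.41 ± 0.66) followed. POL30, the sliding clamp of DNA replication, had -2.70 and -0.88 on arrays 2 and 3, and on array 1 lay at the lower limit of the deposited ratio (0.01). Its mean of -3.41 ± 0.83 therefore rests on a limit, and it was -1.79 without array 1 (adjusted p = 0.0198). POL30 did not pass in a fit to the 3 o-nitrophenol arrays alone (adjusted p = 0.0786). All 15 of the largest rises and all 15 of the largest falls passed without array 1, without array 2 and without array 3. The genes had been picked for calls and large means on these same arrays, so this is no independent test. Without array 1 the means of the 15 rises lay between 3.67 (FMP16) and 6.70 (STR3).

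**Figure D2:**
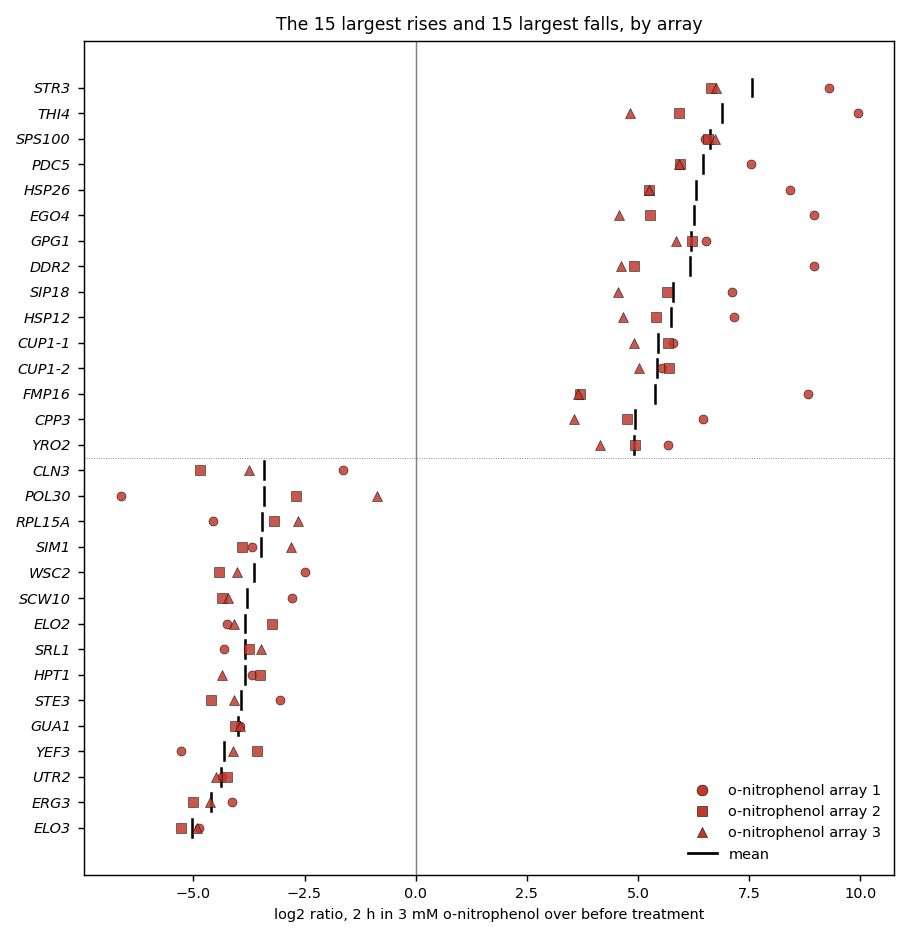
Log2 ratios (horizontal) of the 15 largest rises and the 15 largest falls on the 3 o-nitrophenol arrays, 1 marker shape per array, with the mean as a black bar. The lowest array value of a rise is 3.57 (CPP3) and the highest of a fall is -0.88 (POL30), and array 1 is the highest array for all rises but SPS100 and CUP1-2.

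Genes that protect against stress rose as groups. In the general stress response 20 of 31 genes rose (64.5% called, against 32.4% of all genes). Without array 1, 2 or 3 there were 19, 18 and 18 rises. The median log2 ratio of the list was 2.58, with medians of 3.87, 2.65 and 2.13 on arrays 1, 2 and 3. CTT1, the cytosolic catalase, had 4.86, 3.93 and 3.73, a mean of 4.17 ± 0.58 or 18.0-fold (adjusted p = 0.000964). ALD3, an aldehyde dehydrogenase, had 5.55, 4.20 and 4.77 (4.84 ± 0.43), and CYC7, a cytochrome c isoform, 6.69, 3.82 and 2.85 (4.45 ± 0.79). The lowest array value among these genes was 2.85 (CYC7). DDR48 was alike on the 3 arrays, at 3.52, 3.52 and 3.46.

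Heat shock proteins and co-chaperones held 17 rises and 1 fall among 30 genes (60.0% called, against 32.4% of all genes). The median was 1.35, and 20, 9 and 9 rose without array 1, 2 or 3. The disaggregase gene HSP104 had log2 ratios of 4.40, 4.29 and 3.35, a mean of 4.01 ± 0.27 (adjusted p = 3.53e-05). SSA4, an inducible Hsp70, had 1.78, 2.27 and 2.10 (2.05 ± 0.26), CPR6, a co-chaperone of Hsp90, averaged 2.41 ± 0.33, and CUR1, which sorts misfolded proteins, 1.85 ± 0.29. On arrays 2 and 3 the list median was 1.83 and 1.49, against 0.46 on array 1.

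In the thioredoxin, glutathione and peroxide defence 22 of 35 genes rose and 1 fell (65.7% called, against 32.4% of all genes). The median was 1.90, and 22, 15 and 15 rose without array 1, 2 or 3. GRX1, a glutaredoxin, had log2 ratios of 3.28, 3.64 and 3.51 (3.48 ± 0.33), and AHP1, a thiol peroxidase, 2.27, 3.52 and 3.03 (2.94 ± 0.36). TRX2, the thioredoxin under Yap1, had 1.31, 4.78 and 3.38 (3.16 ± 0.52, adjusted p = 0.00213). GTT2, a glutathione transferase, averaged 2.58 ± 0.39 and ECM4, of the same enzyme family, 3.07 ± 0.36. Array 1 was the lowest for all of these but ECM4, and above 0 for TRX2 and GTT2, which were named whether called or not. The fall was in GRX4, a glutaredoxin of iron regulation (-1.39 ± 0.38, adjusted p = 0.0197), a call that ended without array 2 (0.0537) or array 3 (0.126).

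Of 35 proteasome genes 13 rose (37.1% called, against 32.4% of all genes), with a median of 0.99. The count depended on the array, and 25 rose without array 1, 7 without array 2 and 7 without array 3. The list median was -0.08 on array 1, against 1.54 and 1.41 on arrays 2 and 3. PUP2 and SCL1 of the core particle had means of 2.23 ± 0.37 and 1.91 ± 0.35, and RPN6 and RPN12 of the lid 1.67 ± 0.25 and 1.28 ± 0.23. RPN4, the transcription factor of these genes, had log2 ratios of 0.87, 1.54 and 1.88 (1.43 ± 0.35, adjusted p = 0.0139), and its call ended without array 2 (0.0714) or array 3 (0.0967). Among autophagy and vacuolar genes 7 of 28 rose and 2 fell, a share of 32.1% that lies near the 32.4% of all genes. Their median was 0.44, and 6, 6 and 5 rose without array 1, 2 or 3. PAI3 and PBI2, both proteinase inhibitors, rose by 4.56 ± 0.41 and 4.23 ± 0.53. ATG8, the ubiquitin-like protein of autophagosomes, had 4.39, 0.92 and 2.76 (2.69 ± 0.53).

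**Figure D3:**
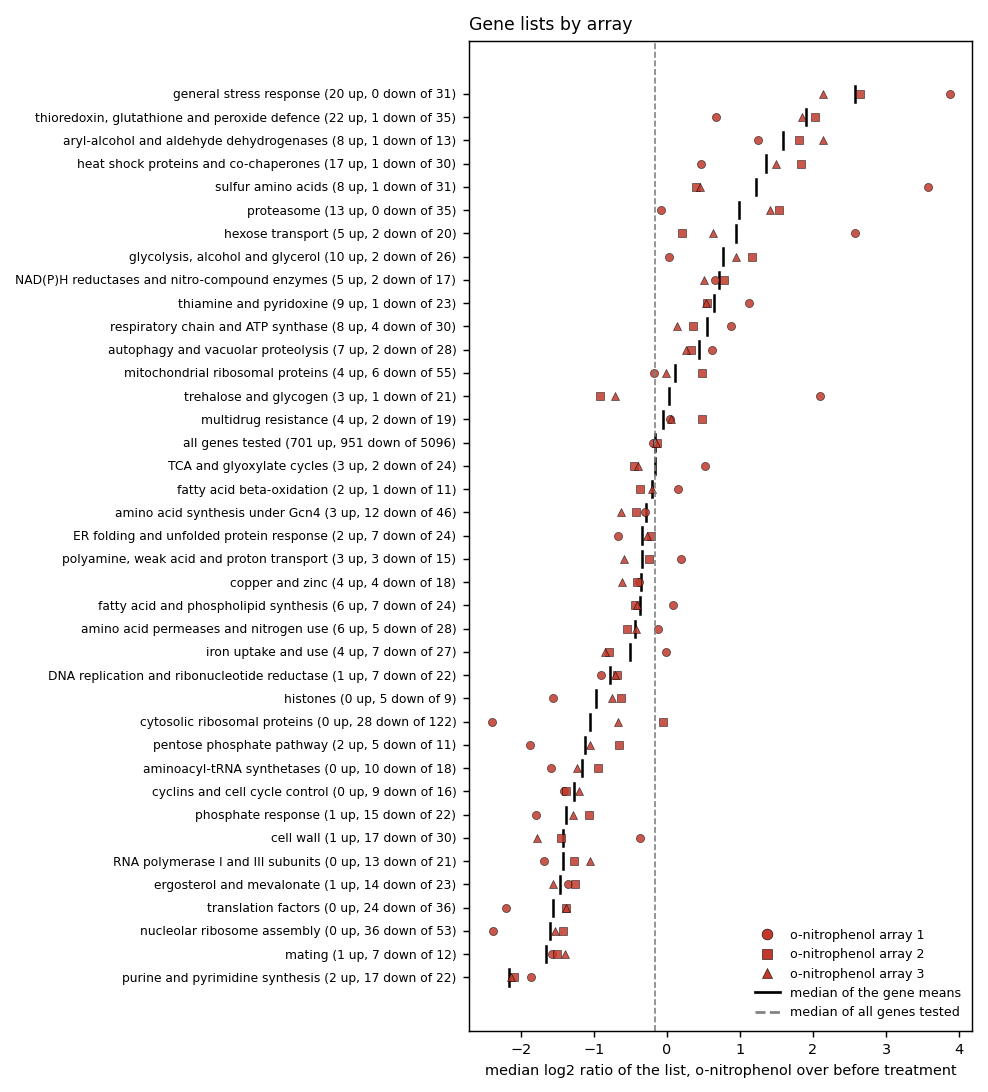
Median log2 ratio (horizontal) of 38 gene lists and of all genes tested in o-nitrophenol, with 1 marker shape per array, the median of the gene means as a black bar and the numbers of calls in brackets. The general stress list has the highest median (2.58) and the purine and pyrimidine list the lowest (-2.17), and the 3 arrays lie farthest apart in the sulfur amino acid and trehalose lists.

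Genes of enzymes that act on aldehydes and nitro compounds moved in both directions. In the list of aryl-alcohol and aldehyde dehydrogenases 8 of 13 genes rose and 1 fell (69.2% called, against 32.4% of all genes). The median was 1.59, and 9, 5 and 5 rose without array 1, 2 or 3. AAD4 had log2 ratios of 1.42, 3.61 and 3.51 (2.85 ± 0.49). The AAD genes are close copies of each other, so that a probe can read several. The count of rises may therefore hold 1 signal more than once. The fall was in ALD6, the main cytosolic acetaldehyde dehydrogenase, with -0.84, -2.58 and -3.34 (-2.25 ± 0.42, adjusted p = 0.00359). Every array had ALD6 below 0, whereas ALD3 was above 4 on every array.

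Of 17 NAD(P)H reductases and nitro-compound enzymes 5 rose and 2 fell (41.2% called, against 32.4% of all genes), with a median of 0.71. Without array 2 or array 3 there were 3 rises and 1 fall. The old yellow enzyme gene OYE3 rose, with log2 ratios of 1.32, 2.61 and 1.83 (1.92 ± 0.35, adjusted p = 0.00396), while its relative OYE2 had -0.50, 0.82 and 0.87 (0.39 ± 0.55, adjusted p = 0.606). The aldehyde reductase genes ARI1 and GRE3 rose by 2.18 ± 0.38 and 2.43 ± 0.46. FRM2, a nitroreductase-like protein, lay near 0 at -0.07, -0.10 and -0.18 (-0.11 ± 0.25, adjusted p = 0.752), and its sign turned under centring (0.05) and quantile scaling (0.03). HBN1, its relative, was not analysed here. GRE2, a methylglyoxal reductase, was at -1.01 on array 1 and at 3.98 and 3.88 on arrays 2 and 3. Its mean of 2.28 ± 0.90 did not pass (adjusted p = 0.0757), and without array 1 it was 3.93 (adjusted p = 0.00328). YHB1, the flavohaemoglobin that removes nitric oxide, fell, with -2.75, -2.71 and -3.35 (-2.93 ± 0.44, adjusted p = 0.00132).

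Of 19 multidrug resistance genes 4 rose and 2 fell, and their share of calls (31.6%) lies near the 32.4% of all genes. The median was -0.05, which turned to 0.11 under centring and 0.05 under quantile scaling. Without array 1 5 rose and 1 fell, and without array 2 or array 3 3 rose. PDR5, the main drug efflux pump, had log2 ratios of -1.04, 1.07 and 1.18 (0.41 ± 0.40, adjusted p = 0.459), and SNQ2, another pump, -0.83, 0.48 and -0.97 (-0.44 ± 0.79, adjusted p = 0.693). Both pumps had arrays on either side of 0. Without array 1 the limma mean of PDR5 was 1.13 and passed (adjusted p = 0.0187), and that of SNQ2 was -0.24 and did not (0.868). The rises were in CIS1, with 1.21, 6.0 and 4.80 (4.0 ± 0.80), in RSB1 and RTA1, related membrane protein genes, by 2.87 ± 0.38 and 2.41 ± 0.32, and in PDR16, a phospholipid transfer protein gene (2.33 ± 0.64, adjusted p = 0.0200). PDR16 no longer passed without array 2 (adjusted p = 0.0937) or array 3 (0.151).

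The 3 pyruvate decarboxylase genes rose, while alcohol dehydrogenase genes moved in both directions. Among 26 genes of glycolysis, alcohol and glycerol 10 rose and 2 fell (46.2% called, against 32.4% of all genes), with a median of 0.76. Without array 1, 2 or 3 there were 12, 7 and 7 rises. Beside PDC5, PDC6 had log2 ratios of 4.96, 3.34 and 3.56 (3.95 ± 0.41, adjusted p = 0.000318), and PDC1, the main isozyme in growing cells, 2.05, 2.57 and 2.04 (2.22 ± 0.33, adjusted p = 0.00121). Each had all 3 arrays above 2. ADH1, which reduces acetaldehyde to ethanol, had 2.19, 1.91 and 1.74 (1.95 ± 0.26), and TDH1, a glyceraldehyde-phosphate dehydrogenase, 3.53, 2.34 and 2.61 (2.83 ± 0.38). The falls, ADH3 (-1.0 ± 0.34, adjusted p = 0.0478) and ADH4 (-0.94 ± 0.30, 0.0368), ended in 15 and 13 of the alternative fits.

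Pyruvate decarboxylase uses thiamine diphosphate, and 9 of 23 thiamine and pyridoxine genes rose and 1 fell (7, 7 and 6 rises without array 1, 2 or 3), with a median of 0.64. Calls made up 43.5% of this list, against 32.4% of all genes. THI11 and THI5 of the pyrimidine branch rose by 2.15 ± 0.33 and 1.86 ± 0.25, and THI13 by 2.37 ± 0.46, a call that ended in the low-power scans (adjusted p = 0.0584). These are near-identical copies, and a probe may read the whole family. The count and share of calls may therefore hold 1 signal more than once. SNZ1, of pyridoxine synthesis, lay near 0, with 0.40, 0.36 and 0.01 (0.26 ± 0.41, adjusted p = 0.657). In the pentose phosphate pathway 2 of 11 genes rose and 5 fell (63.6% called, against 32.4% of all genes). These counts were the same without array 1, 2 or 3. ZWF1, the first enzyme, which makes NADPH, rose, with 1.88, 1.84 and 2.25 (1.99 ± 0.24), while GND1, the next NADPH-making step, fell, with -2.37, -1.87 and -1.87 (-2.04 ± 0.33). TKL1, RKI1 and SOL3 fell by 3.17 ± 0.41, 2.64 ± 0.29 and 1.64 ± 0.28.

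Respiratory chain and ATP synthase genes held 8 rises and 4 falls among 30 (6, 5 and 8 rises without array 1, 2 or 3), with a median of 0.55. Calls made up 40.0% of them, against 32.4% of all genes. COX5B, the hypoxic isoform of a cytochrome oxidase subunit, rose by 3.32 ± 0.58, and QCR8 by 2.29 ± 0.28. Trehalose and glycogen genes depended on the array. With all arrays 3 of 21 rose and 1 fell (19.0% called, against 32.4% of all genes), and the median was 0.03. The median was 2.09 on array 1, against -0.92 and -0.71 on arrays 2 and 3, and without array 1 it was -0.96, with 1 rise and 4 falls. Without the 3 arrays numbered 1 of all isomers 4 rose and 13 fell. GIP2, a putative phosphatase subunit of glycogen metabolism, was above 2 on every array, at 2.43, 3.06 and 3.71. Of 20 hexose transport genes 5 rose and 2 fell, a share of 35% that lies near the 32.4% of all genes. Without array 1, 2 or 3 there were 4, 4 and 1 rises. The list medians were 2.57, 0.21 and 0.63 on arrays 1, 2 and 3.

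**Figure D4:**
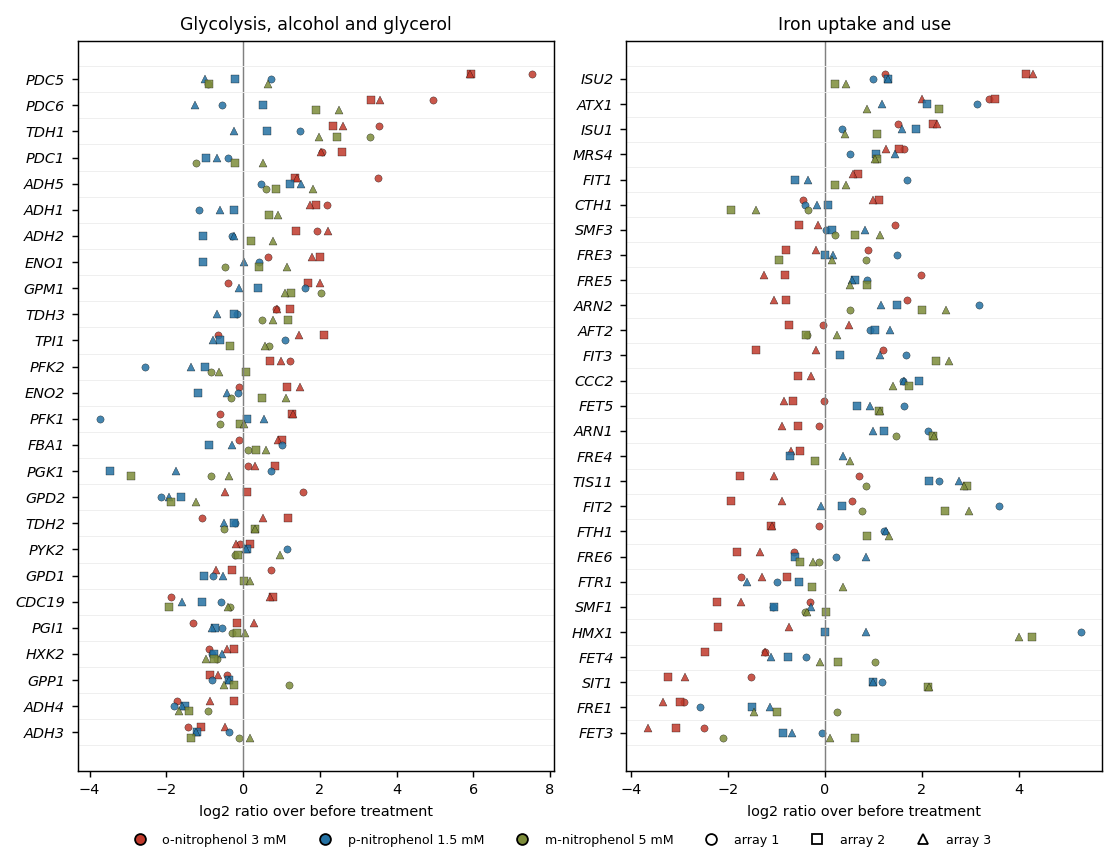
Log2 ratios (horizontal) of every tested gene of the glycolysis, alcohol and glycerol list (left) and the iron list (right), ordered by their o-nitrophenol mean, for o-nitrophenol, p-nitrophenol and m-nitrophenol, with 1 marker shape per array. The lowest o-nitrophenol value of PDC5 is 5.92, and the highest of SIT1 and FET3 are -1.53 and -2.50.

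Metal genes moved in both directions. Among 18 copper and zinc genes 4 rose and 4 fell (44.4% called, against 32.4% of all genes). The rises include both CUP1 genes, whose probes cannot be told apart, so these numbers may hold 1 signal more than once. Beside both CUP1 genes, CRS5, the other metallothionein gene, had log2 ratios of 4.07, 4.44 and 4.01 (4.17 ± 0.29, adjusted p = 0.000107), and CUP2, the copper-sensing activator of CUP1, 0.77, 1.72 and 1.81 (1.43 ± 0.31, adjusted p = 0.00761). The call of CUP2 ended without array 2 (0.0537) or array 3 (0.0618). ZRC1, a vacuolar zinc transporter, fell, at -2.06, -2.04 and -2.0, and so did IZH2, a membrane protein of zinc metabolism (-2.0 ± 0.34).

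Of 27 iron uptake and use genes 4 rose and 7 fell (10, 5 and 4 falls without array 1, 2 or 3), with a median of -0.51. Their share of calls was 40.7%, against 32.4% of all genes. FET3, the ferroxidase of high-affinity iron uptake, had log2 ratios of -2.50, -3.06 and -3.65 (-3.07 ± 0.46, adjusted p = 0.00132). FRE1, a metal reductase, had -2.90, -2.98 and -3.34 (-3.07 ± 0.37), and SIT1, a siderophore transporter, -1.53, -3.24 and -2.89 (-2.55 ± 0.33). All arrays lay below 0 for these 3 and for FET4, a low-affinity transporter (-1.65 ± 0.33), as the choice of list members required. ISU2, a scaffold for iron-sulfur clusters, rose, with 1.25, 4.15 and 4.29 (3.23 ± 0.51), and so did ATX1, a copper chaperone, with 3.39, 3.52 and 2.00 (2.97 ± 0.46).

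In sulfur amino acid metabolism 8 of 31 genes rose and 1 fell (6, 8 and 7 rises without array 1, 2 or 3), and 29.0% were called, against 32.4% of all genes. The median was 1.22, but 3.58 on array 1 against 0.39 and 0.45 on arrays 2 and 3, and 0.34 without array 1. Beside STR3, the methionine permease gene MUP1 had log2 ratios of 3.85, 3.44 and 2.74 (3.34 ± 0.48), MET16 of sulfate reduction 5.6, 2.30 and 3.41 (3.77 ± 0.70) and the regulator gene MET32 6.02, 2.35 and 2.31 (3.56 ± 0.65). All 3 genes were above 2 on every array.

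Genes of ribosome production and translation mostly fell. Of 53 nucleolar ribosome assembly genes 36 fell (67.9% called, against 32.4% of all genes), with a median of -1.61. Without array 1, 2 or 3 there were 34, 23 and 25 falls. NMD3, an export adaptor of the large subunit, had log2 ratios of -3.41, -2.71 and -3.18 (-3.10 ± 0.47), and NOP7 and YTM1, which act in one assembly complex, averaged -2.47 ± 0.32 and -2.68 ± 0.33. 13 of 21 RNA polymerase I and III subunit genes fell, 61.9% of them (10, 7 and 7 without array 1, 2 or 3). RPA49 fell by 2.74 ± 0.31. 24 of 36 translation factor genes fell, 66.7% of them (21, 21 and 21 without array 1, 2 or 3), with a median of -1.57. TIF5, an initiation factor, had -2.48, -2.38 and -2.62 (-2.49 ± 0.26, adjusted p = 0.000228), and SUI2, the alpha subunit of another, -2.41, -2.65 and -1.55. 10 of 18 aminoacyl-tRNA synthetase genes fell, 55.6% of them (9, 7 and 7 without array 1, 2 or 3). DED81 for asparagine fell by 3.13 ± 0.31.

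Cytosolic ribosomal protein genes depended on the array. 28 of 122 fell, 23.0% of them called against 32.4% of all genes, and the median was -1.06. On array 1 the median was -2.40, against -0.05 and -0.67 on arrays 2 and 3. Without array 1 there were 9 falls and 2 rises and a median of -0.39, without array 2 there were 20 falls and without array 3 there were 13. RPL4A and RPL4B, copies of each other, had log2 ratios of -2.45, -2.57 and -3.26, and -3.18, -2.87 and -3.23. RPL5 averaged -3.13 ± 0.58 and RPS15 -2.34 ± 0.43. These 4 genes were below -2 on every array. Mitochondrial ribosomal protein genes had 4 rises and 6 falls among 55 (18.2% called) and a median of 0.11, with MRP4 at -2.16, -2.46 and -2.19.

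Nucleotide synthesis held the lowest median of the 38 lists, -2.17. Of 22 purine and pyrimidine genes 17 fell and 2 rose (86.4% called, against 32.4% of all genes). Without array 1, 2 or 3 there were 17, 14 and 13 falls. The medians were -1.87, -2.10 and -2.14 on arrays 1, 2 and 3. IMD2 and IMD3, IMP dehydrogenases on the way to GMP, averaged -3.26 ± 0.38 and -2.31 ± 0.24. URA1, dihydroorotate dehydrogenase, had log2 ratios of -3.28, -2.31 and -2.92 (-2.84 ± 0.28, adjusted p = 0.000256). The rises were in minor isozymes, URA8 of CTP synthase (2.37 ± 0.38) and URA10 of orotate phosphoribosyltransferase, with 7.29, 2.80 and 2.50 (4.20 ± 0.80).

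In ergosterol and mevalonate synthesis 14 of 23 genes fell and 1 rose (65.2% called, against 32.4% of all genes). The median was -1.47, and 12, 12 and 12 fell without array 1, 2 or 3. ERG2, the sterol isomerase, had log2 ratios of -3.41, -3.37 and -2.82 (-3.20 ± 0.26, adjusted p = 7.52e-05). ERG13, which makes hydroxymethylglutaryl-CoA, and the sterol desaturase ERG5 averaged -2.70 ± 0.30 and -2.67 ± 0.35. Fatty acid and phospholipid synthesis was mixed, with 6 rises and 7 falls among 24 genes (54.2% called). OLE1, the fatty acid desaturase, fell, with -1.78, -3.45 and -4.41 (-3.22 ± 0.62), and INO4, an activator of phospholipid genes, rose, with 4.10, 3.60 and 3.36 (3.69 ± 0.32). OPI3, a phospholipid methyltransferase, rose by 2.62 ± 0.39.

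Cell wall, cell cycle and mating genes mostly fell. In the cell wall list 17 of 30 genes fell and 1 rose (60.0% called, against 32.4% of all genes). The median was -1.42, and 20, 10 and 8 fell without array 1, 2 or 3. GAS3, of the glucanosyltransferase family, fell by 2.77 ± 0.31 in addition to UTR2, SRL1 and SCW10. 9 of 16 cyclin and cell cycle control genes fell, 56.2% of them (9, 6 and 4 falls without array 1, 2 or 3). Their median was -1.28. CLN2, a cyclin of the start of the cell cycle, had log2 ratios of -2.40, -3.34 and -2.73 (-2.83 ± 0.28), and CDC5, the polo kinase, averaged -1.51 ± 0.24. 7 of 12 mating genes fell and 1 rose (66.7% called), with 7 falls in each fit without 1 array. SAG1, the alpha-agglutinin gene, was at -2.45, -4.32 and -3.38. In the phosphate response 15 of 22 genes fell and 1 rose (72.7% called). The median was -1.38, and 10, 9 and 8 fell without array 1, 2 or 3. PHO11 and PHO12, near-identical acid phosphatase genes, averaged -2.95 ± 0.60 and -2.73 ± 0.40, and the phosphate transporter PHO90 -2.15 ± 0.37. 5 of 9 histone genes fell (55.6% called), HTB2 by 2.35 ± 0.40, and 2, 3 and 3 fell without array 1, 2 or 3. Of 22 DNA replication genes 7 fell and 1 rose, 36.4% of them against 32.4% of all genes (8, 4 and 4 falls without array 1, 2 or 3), RFC1 of the clamp loader by 1.51 ± 0.25.

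Where the response to o-nitrophenol differed from that to the other isomers was tested as the o-nitrophenol mean minus the average of the p- and m-nitrophenol means. The isomers were given at different doses (3, 1.5 and 5 mM for o-, p- and m-nitrophenol), so isomer and dose cannot be told apart. Of the 5096 genes 167 passed (3.28%), 89 higher (1.75%) and 78 lower (1.53%) in o-nitrophenol. These counts depended on single arrays. They ranged from 9 higher and 4 lower without o-nitrophenol array 3 to 188 and 208 without o-nitrophenol array 1, and leaving out array 2 or 3 of p- or m-nitrophenol gave 21 to 27 higher and 6 to 12 lower. The genes in the next paragraphs have the largest called differences among those whose o-nitrophenol arrays do not overlap the other arrays, unless another reason is given.

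PDC5 had the largest difference. Its log2 ratios were 7.54, 5.94 and 5.92 in o-nitrophenol, against 0.72, -0.22 and -0.99 in p-nitrophenol and -0.92, -0.90 and 0.66 in m-nitrophenol, a difference of 6.74 ± 0.55 (adjusted p = 0.000673). FSH1, a serine hydrolase gene, had 3.59, 3.90 and 3.50 in o-nitrophenol, against 0.27, -1.08 and -0.48 in p-nitrophenol and -0.16, -0.78 and -0.83 in m-nitrophenol (4.18 ± 0.36, adjusted p = 0.000673). Both genes rose in o-nitrophenol and lay near 0 or below in the other isomers. CTT1 averaged 4.17 in o-nitrophenol, against -2.11 in p-nitrophenol and -0.03 in m-nitrophenol, a difference of 5.24 ± 0.71 (adjusted p = 0.00777). CUP1-1 averaged 5.46 in o-nitrophenol, against 1.33 in p-nitrophenol and 1.51 in m-nitrophenol (4.05 ± 0.50, adjusted p = 0.00441), and CUP1-2 differed by 3.91 ± 0.46. HSP104, which the rule for list members names, differed by 2.85 ± 0.33 (adjusted p = 0.00416). THI4 (6.46 ± 1.16), EGO4 (5.38 ± 1.06), CYC7 (4.82 ± 0.96), TPO2, a polyamine exporter gene (4.26 ± 0.65), and YRO2 (4.17 ± 0.62) were also higher. TPO2 averaged 1.36 in o-nitrophenol, against -2.60 in p-nitrophenol and -3.19 in m-nitrophenol. Its own mean against before treatment did not pass (adjusted p = 0.0666).

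**Figure D5:**
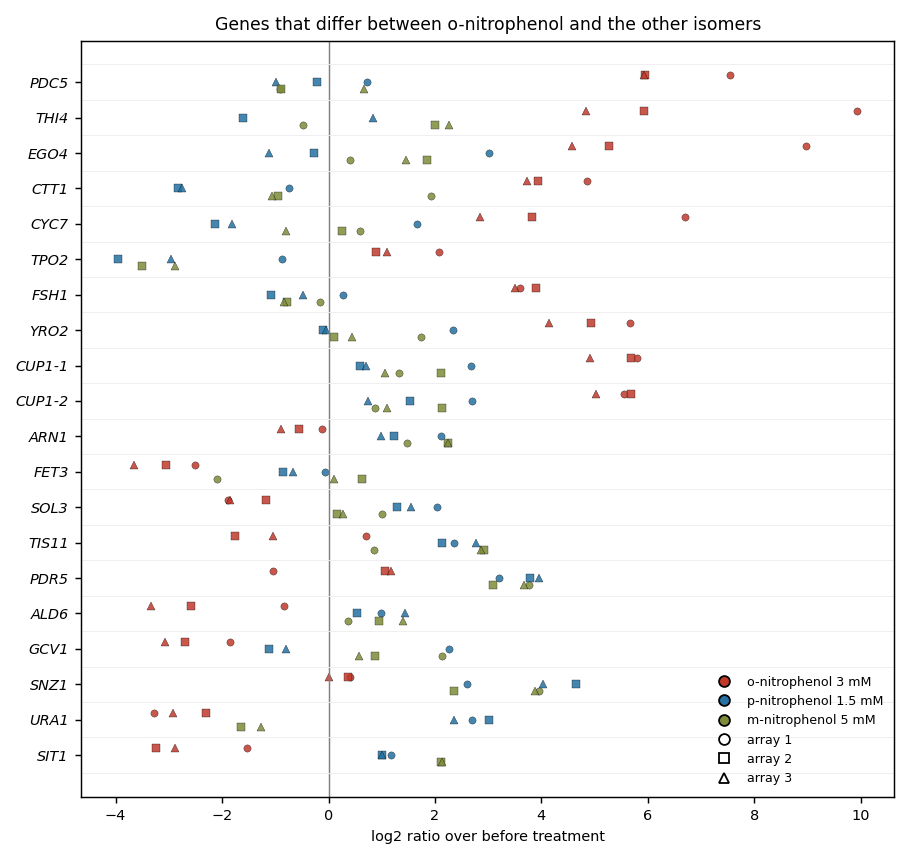
Log2 ratios (horizontal) of the 10 genes most higher and the 10 most lower in o-nitrophenol than in the other isomers, for o-nitrophenol (3 mM), p-nitrophenol (1.5 mM) and m-nitrophenol (5 mM), with 1 marker shape per array. The o-nitrophenol arrays of each gene lie outside the range of the other arrays, as the choice of genes required, from a difference of 6.74 for PDC5 to -4.15 for SIT1.

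SIT1 was the farthest below the other isomers. Its log2 ratios were -1.53, -3.24 and -2.89 in o-nitrophenol, against 1.18, 1.00 and 1.00 in p-nitrophenol and 2.12 and 2.14 on the 2 m-nitrophenol arrays with a value (difference -4.15 ± 0.42, adjusted p = 0.00392). The iron genes TIS11, FET3 and ARN1 differed by -3.02 ± 0.60, -2.58 ± 0.56 and -2.24 ± 0.37. Of 27 iron genes 7 were lower in o-nitrophenol than in the other isomers, against 78 of all 5096 genes tested (1.53%). The median log2 ratio of the iron list was -0.51 in o-nitrophenol, against 1.04 in p-nitrophenol and 0.68 in m-nitrophenol. Without o-nitrophenol array 1 the number lower was 12, and without array 2 or array 3 it was 1. PDR5 had -1.04, 1.07 and 1.18 in o-nitrophenol, against 3.20, 3.78 and 3.95 in p-nitrophenol and 3.77, 3.10 and 3.67 in m-nitrophenol (difference -3.17 ± 0.49, adjusted p = 0.0122). SNQ2, given beside PDR5 as the other pump, differed by -2.10 ± 0.97 and did not pass (adjusted p = 0.232, 95% interval -4.25 to 0.05). The difference of SNQ2 did pass with array quality weights, without p-nitrophenol array 1 and without the 3 arrays numbered 1. URA1 averaged -2.84 in o-nitrophenol, against 2.69 in p-nitrophenol and -1.45 in m-nitrophenol (difference -3.45 ± 0.35, adjusted p = 0.00392), so the other isomers themselves lay on both sides of 0. SNZ1 averaged 0.26 in o-nitrophenol, against 3.76 in p-nitrophenol and 3.39 in m-nitrophenol (-3.32 ± 0.51). ALD6 averaged -2.25 in o-nitrophenol, against 0.99 in p-nitrophenol and 0.90 in m-nitrophenol (-3.20 ± 0.52). GCV1, of the glycine cleavage system, and SOL3, a lactonase of the pentose phosphate pathway, differed by -3.20 ± 0.71 and -2.68 ± 0.34.

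The calls of PDC5, FSH1, CTT1, CUP1-1, CUP1-2, HSP104, URA1, SIT1 and PDR5 held in each alternative fit of the difference that tested the gene, each left-out array included. PDC5 and FSH1 were not tested in the high-power scans alone, nor URA1 and SIT1 in the low-power scans alone. The other called differences given so far lost their call in at least 1 fit without a single array, for THI4 without array 2 or 3 of any isomer (adjusted p from 0.0548 to 0.0745). FET3 also lost it under quantile scaling (0.0624), EGO4 in the low-power scans (0.0559) and GCV1 under centring (0.0545).

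In the glycolysis, alcohol and glycerol list 7 of 26 genes were higher in o-nitrophenol than in the other isomers, against 89 of all 5096 genes tested (1.75%). Without o-nitrophenol array 1, 2 or 3 the list had 7, 1 and 1 higher. Its median was 0.76 in o-nitrophenol, against -0.55 in p-nitrophenol and 0.13 in m-nitrophenol. Besides PDC5 they were PDC6 (difference 3.07 ± 0.52), PDC1 (2.71 ± 0.40), ADH1 (1.89 ± 0.34) and, named after their values were seen to complete the 7, ADH2 (1.86), GPD2 (2.11) and PFK2 (2.03). The calls of PDC1, PDC6 and ADH1 ended without array 2 (adjusted p of 0.0531, 0.0531 and 0.0943) or array 3 (0.0626, 0.0696 and 0.0824) of o-nitrophenol. ADH2, GPD2 and PFK2 also lost theirs without either array. GPD2 did so too with the array number as a block (0.0536) and under a robust prior (0.0504), and ADH2 with the scans fitted unaveraged (0.0505). Of 122 cytosolic ribosomal protein genes 7 were higher, against 1.75% of all genes tested. RPL4A was among the 7 (1.85 ± 0.34). Its call ended in the high-power scans alone (adjusted p = 0.0868), under quantile scaling (0.0507) and in 6 of the fits without 1 array. Their median was -1.06 in o-nitrophenol, against -2.34 in p-nitrophenol and -2.88 in m-nitrophenol, where 93 and 103 of 122 fell. Without o-nitrophenol array 1 the number higher was 40, without the 3 arrays numbered 1 it was 108, and without o-nitrophenol array 2 or 3 limma called 0, where 20 and 26 were higher at an unadjusted p under 0.05 and no other tool was run.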

How the data were processed

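Per the labels, the authors applied LOWESS normalization to spots of flag 0, and the deposited ratios are on the log2 scale, as 13 values at exactly the log2 of 0.01 show. The sources used here do not give the background correction or the rule by which spots lack a value. Spot intensities were not analysed here, so the data carry no measure of signal over background or of saturation. Of 6912 probes 5513 had 1 gene symbol, 1399 none and 0 several, and 5360 of 5365 genes matched a RefSeq table of the R64 assembly through Entrez identifiers. Probes of a gene were averaged (99 genes), as were the scans of an array where both had a value.

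limma 3.58.1 in R 4.3.3 fitted group means to the 9 arrays, and o-nitrophenol was tested against 0 and against the average of the other isomers. Genes with values on at least 2 arrays per group were tested, at an adjusted p of 0.05. Of them 3717 had 3 and 1379 had 2 o-nitrophenol values. The fit was tested on simulated data.

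The members and the 38 gene lists were chosen with earlier results of these data known. Named were the 15 largest rises and falls among called genes with a standard name and 1 sign on 3 arrays, up to 4 called members per list by p in the commoner direction and 2 in the other, up to 10 genes in each direction that differ from the other isomers without overlap, and 20 genes given whether called or not. Of the last, PMA1 had too few values to be tested. List members, like the largest changes, had to have a standard name and 1 sign on 3 arrays. Genes known only by a systematic name (73 rises and 46 falls) were counted only. A search of promoter sequences was planned and not run, and promoters were not analysed here. Alternatives were the scans, the scaling, the filter, the o-nitrophenol arrays alone, array weights (statmod 1.5.0 for the scans as a random block), a robust prior, the probe, the array number as a block, and leaving out arrays.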

Additional observations from a re-analysis of the deposited data

Results flagged for a closer look

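The genes below are those whose called difference is given above. For them the effect of o-nitrophenol differed from the average effect of p- and m-nitrophenol in limma's test of that difference, at doses that also differed. Other named genes passed the same test and are not listed. Among them were SPS100 (3.57, adjusted p = 0.00703), ALD3 (3.51, 0.0106), CRS5 (3.28, 0.00777), SSA4 (2.50, 0.00927) and, below 0, UTR2 (-1.92, 0.0487). Log2 differences above 0 were 6.74 for PDC5, 6.46 for THI4, 5.38 for EGO4, 5.24 for CTT1, 4.82 for CYC7, 4.26 for TPO2, 4.18 for FSH1, 4.17 for YRO2, 4.05 for CUP1-1, 3.91 for CUP1-2, 3.07 for PDC6, 2.85 for HSP104, 2.71 for PDC1, 2.11 for GPD2, 2.03 for PFK2, 1.89 for ADH1, 1.86 for ADH2 and 1.85 for RPL4A. Differences below 0 were -4.15 for SIT1, -3.45 for URA1, -3.32 for SNZ1, -3.20 for ALD6 and for GCV1, -3.17 for PDR5, -3.02 for TIS11, -2.68 for SOL3, -2.58 for FET3 and -2.24 for ARN1. Groups of 3 arrays are too small for the search for single outlying samples.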

How the results depend on the processing

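Array quality weights, which gave array 1 of o-nitrophenol a weight of 0.2 against 1.39 and 2.31 for arrays 2 and 3, gave 1128 rises and 1528 falls against before treatment, and 588 genes higher and 827 lower than in the other isomers. Without the 3 arrays numbered 1 these numbers were 1130, 1492, 571 and 766. Array 1 of p-nitrophenol had a weight of 0.26, against 1.5 and 2.94, and array 1 of m-nitrophenol 0.43, against 1.64 and 1.89. The 3 o-nitrophenol arrays alone gave 460 rises and 590 falls. Low-power scans alone, with 3776 genes tested, gave 604 falls, and 119 genes lower than in the other isomers. Fitting the scans unaveraged, the array being a random block, gave 208 genes higher and 194 lower than in the other isomers. Centring gave 40 lower, and the genes with values on all 3 o-nitrophenol arrays, of which fewer were tested (3717), 47 lower. Leaving out 1 array gave 380 to 815 rises and 461 to 1110 falls, and 9 to 188 genes higher and 4 to 208 lower than in the other isomers. The cause was not tested. With the array number as a replicate block there were 863 rises and 1187 falls, and 179 genes higher and 165 lower than in the other isomers. Deviations of same-numbered arrays correlated at 0.27 to 0.37 between o- and p-nitrophenol, at 0.06 to 0.22 between o- and m-nitrophenol and at 0.12 to 0.26 between p- and m-nitrophenol. Since not all 9 exceeded 0.1, and array 3 of o-nitrophenol correlated better with array 2 of m-nitrophenol (0.10) than with array 3, the numbers were not taken to pair the samples. Signs turned for FRM2 alone among the named ratios, to 0.05 under centring and 0.03 under quantile scaling. Quantile scaling gave 666 rises and 741 falls. Depth could not be examined without intensities.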

Other observations

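Of 46 amino acid synthesis genes under Gcn4 12 fell and 3 rose in o-nitrophenol, a share of 32.6% near the 32.4% of all genes tested (11, 7 and 4 falls without o-nitrophenol array 1, 2 or 3), with a median log2 ratio of -0.29, against -0.17 over all genes tested. ILV1, the threonine deaminase of isoleucine synthesis, had log2 ratios of -2.02, -2.40 and -2.27 (-2.23 ± 0.38, adjusted p = 0.00286), and ASN2, an asparagine synthetase, averaged -1.73 ± 0.28. ARG4, of arginine synthesis, had 3.25, 2.56 and 3.62 (3.14 ± 0.74), a call that ended without array 3 (adjusted p = 0.0731). Among 28 amino acid permease and nitrogen genes 6 rose and 5 fell (39.3%, against 32.4% of all genes tested). Without array 2 or array 3 only 1 rose. MEP3, an ammonium permease, rose by 1.52 ± 0.27, and the amino acid permeases GNP1 and TAT2 fell by 2.48 ± 0.46 and 1.91 ± 0.36. GLN1, glutamine synthetase, was at 0.15 on array 1 and at 2.99 and 2.94 on arrays 2 and 3 (2.03 ± 0.48), and lost its call without array 2 (0.0846) or array 3 (0.0886), in the high-power scans (0.0588) and in the 3 o-nitrophenol arrays alone (0.0754).

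Of 24 genes of the TCA and glyoxylate cycles 3 rose and 2 fell, 20.8% of them against 32.4% of all genes tested. KGD2, of the oxoglutarate dehydrogenase, rose by 1.66 ± 0.34, and CIT2, the peroxisomal citrate synthase gene, fell by 2.41 ± 0.44. The genes of ER folding had 2 rises and 7 falls among 24, or 37.5% against 32.4% of all genes tested. Without array 1, 2 or 3 there were 5, 3 and 1 falls. SEC61, the protein-conducting channel, was at -1.27, -2.51 and -2.52 (-2.10 ± 0.31). Of 15 polyamine, weak acid and proton transport genes 3 rose and 3 fell (40.0%, against 32.4% of all genes tested). PMP2, a small subunit of the proton pump, rose by 1.67 ± 0.30, and TPO5, a polyamine transporter, and SPE4, spermine synthase, fell by 1.88 ± 0.32 and 1.54 ± 0.28. Of 11 beta-oxidation genes 2 rose and 1 fell (27.3%, against 32.4% of all genes tested). SPS19, a peroxisomal reductase, had 2.60, 1.77 and 2.69.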
